A study of Mus musculus with 9 samples.

Results

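B16-F10 is a mouse melanoma cell line derived from C57BL/6 mice, and its tumours take up varying numbers of host leukocytes when they grow under the skin. The 9 tumour libraries of the series were ordered by their own leukocyte transcripts, and the 3 highest were set against the 3 lowest whatever hairpin the tumour cells carried. The libraries of each set were chosen by measured values, the mean log2(CPM + 1) of 5 genes, where CPM is a gene's count per 1000000 counts of its library. These were Ptprc, which encodes the pan-leukocyte surface protein CD45, Cd3e of the T cell receptor complex, the CD8 chain Cd8a, the macrophage growth factor receptor Csf1r and the myeloid signalling adaptor Tyrobp. The leukocyte-rich and leukocyte-poor sets therefore hold 6 of the 9 libraries, and 3 libraries lie between them.

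The tumour cells carried a control short hairpin RNA (the shcontrol group, labelled wild type) or 1 of 2 hairpins against Fbxo38 (shFBXO38#1 and shFBXO38#2, called hairpin 1 and hairpin 2 here), with 3 libraries for each. Fbxo38 encodes a substrate receptor of an SCF ubiquitin ligase. Cells were injected under the skin of C57BL/6 mice, which have an intact immune system, no further treatment is given in the labels, and tumours were taken on day 16. RNA of whole tumour tissue was sequenced, so every library mixes tumour cells with host cells. The labels give neither the age or sex of the mice nor whether each library came from a separate mouse, so replicate spread may be in part technical. Library totals ran from 15322163 to 17342554 counts.

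A tumour is seen by the immune system largely through peptides on MHC class I, which CD8 T cells read, and on MHC class II, which CD4 T cells read. Activated T cells and natural killer cells release interferon gamma, and tumour cells, macrophages and vessel cells answer with a shared set of genes that includes the peptide-loading machinery, guanylate-binding proteins and the chemokines Cxcl9 and Cxcl10. Cultured B16-F10 cells are known for low surface MHC class I that interferon gamma can raise.

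The rich set held 1 library of each label, with ranking values of 3.15 for control replicate 2, 3.31 for hairpin 1 replicate 1 and 3.35 for hairpin 2 replicate 3. The poor set held hairpin 2 replicate 2 at 1.18, control replicate 3 at 2.02 and hairpin 2 replicate 1 at 2.04, and thus no hairpin 1 library. Between them lay control replicate 1 at 2.13, hairpin 1 replicate 3 at 2.22 and hairpin 1 replicate 2 at 2.27. The rich set was separated from the next library by 0.885, whereas only 0.091 separated the poor set from the library above it. Hairpin 2 replicate 2 lay 0.841 below its neighbour and stood apart within the poor set. Values below are therefore also given without that library where it matters. In every series of 9 values that follows, the order is that of the ranking: the 3 poor libraries, the 3 between, then the 3 rich libraries, as named above.

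**Figure D1:**
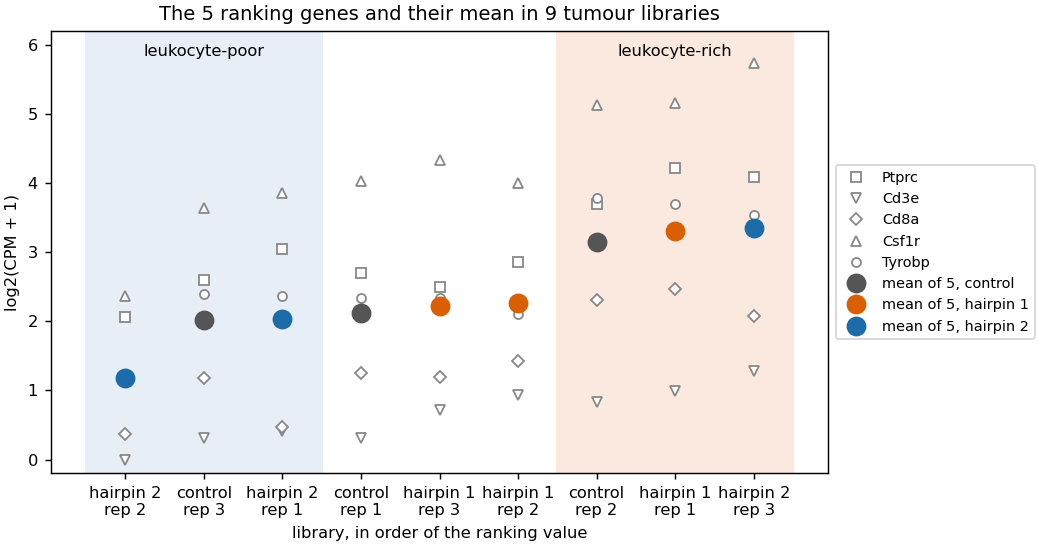
Level of each ranking gene (open symbols) and their mean (filled circles, coloured by hairpin label) on the log2(CPM + 1) scale in the 9 tumour libraries, ordered by the mean. The 3 rich libraries lie at 3.15 to 3.35 and the other 6 at 1.18 to 2.27.

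Among the ranking genes, Csf1r measured 4.16, 11.5 and 13.6 CPM in the poor libraries, 15.4, 19.2 and 15.04 CPM in the middle ones, and 34.1, 34.8 and 52.2 CPM in the rich ones. Cd8a was at 0.293, 1.27 and 0.392 CPM in the poor libraries and at 3.95, 4.56 and 3.23 CPM in the rich libraries. Cd3e did not exceed 1.44 CPM in any library, so the T cell share of the ranking rests on few reads. These values chose the sets and carry no test. No comparison of the sets below carries one either, since every gene comes from the libraries that were ranked: differences are described by their size, their spread and whether the libraries of the sets overlap. A gene was counted as higher or lower where the set means of log2(CPM + 1) differed by at least 1, which is about 2-fold for a gene well above 1 CPM, and the 3 rich libraries did not overlap with the 3 poor ones.

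Of 14188 genes kept by the filter on low counts, leaving out the ranking genes, 462 (3.26%) were counted higher in the rich set and 31 (0.218%) lower. Without hairpin 2 replicate 2, 403 of the 14188 genes were counted higher and 20 lower. These counts over all genes are the background for every count of list members below, with and without that library. The median difference over all genes was -0.0419 on the log2 scale with all 3 poor libraries. Without regard to size, 1220 genes (8.6%) were higher with no overlap and 1477 (10.4%) lower with no overlap, so the excess of higher genes lay in the large differences. In 368 of the 462 genes (2.59% of all genes) the 3 rich libraries lay above all 6 others, which at any size held for 5.25% of all genes. In 22 of the 31 they lay below all 6 others, which at any size held for 3.71%. Nr1h3 at 1.001 and N4bp2 at -1.001 lay closest to the threshold inside it.

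**Figure D2:**
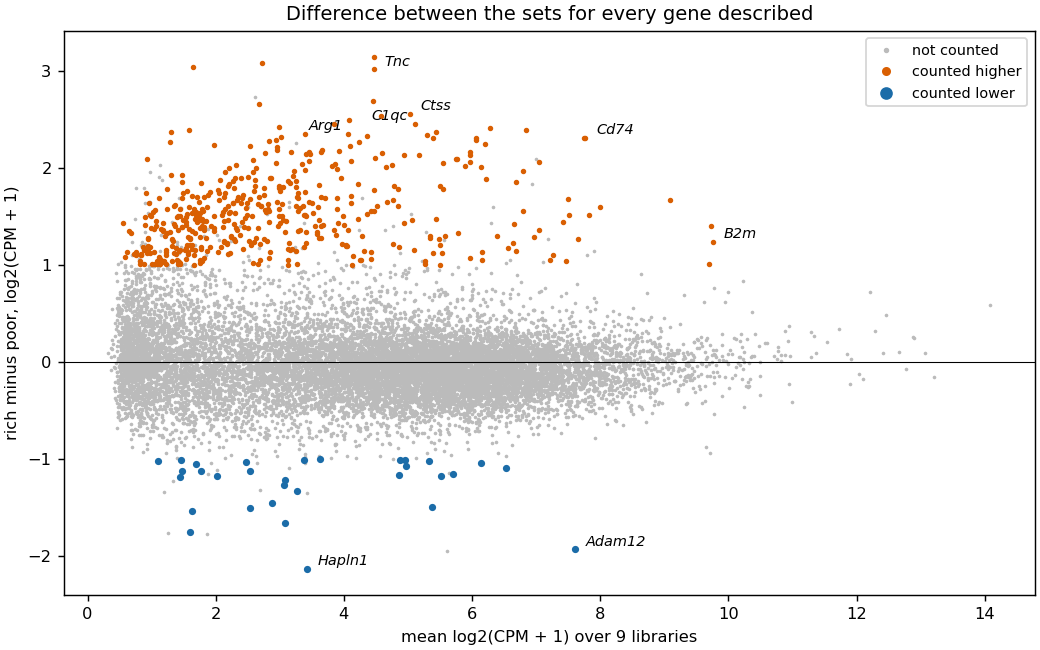
Difference between the rich and poor set means (vertical axis, log2(CPM + 1)) against the mean level over 9 libraries (horizontal axis), 1 point per gene. The 462 genes counted higher (orange) spread up to 3.15 and the 31 counted lower (blue) down to -2.14.

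The 15 largest positive differences included macrophage, interferon-response and matrix genes. Ctss, a lysosomal protease that trims the MHC class II invariant chain, measured 5.16, 17.2 and 26.0 CPM in the poor libraries, 24.1, 32.3 and 25.5 CPM in the middle and 63.1, 85.2 and 111 CPM in the rich libraries (difference 2.56 ± 0.68 SE). Zbp1, an interferon-induced sensor of Z-form nucleic acids, measured 2.05, 21.8 and 14.8 CPM against 52.1, 73.7 and 54.0 CPM. In both genes the rich libraries lay above all others. The largest 15 further held the complement gene C1qc, the MHC class II chain H2-Aa, the interferon-inducible GTPase Igtp, Gm12250, the interleukin-12 receptor chain Il12rb1, the fibrinogen-like protein gene Fgl2, and the paired genes Apol9a and Apol9b, whose reads can be hard to tell apart. Much of the difference of several of these came from hairpin 2 replicate 2: without it C1qc stood at 1.39 in place of 2.46, H2-Aa at 1.33 in place of 2.41, Igtp at 1.33 in place of 2.39, Gm12250 at 1.41 in place of 2.496, Zbp1 at 1.66 in place of 2.54, Apol9b at 2.06 in place of 3.15 and Apol9a at 1.79 in place of 2.69. The remaining members were the extracellular matrix genes Tnc, Fbln2, Ltbp2, Loxl1 and Dcn. For Fbln2, Ltbp2 and Dcn, control replicate 2 of the rich set measured only 4.15, 1.23 and 1.69 CPM. Hairpin 1 replicate 3, a middle library, lay above it at 9.18, 1.94 and 2.26 CPM. The other rich libraries measured 89.3, 33.7 and 13.8 CPM (hairpin 1 replicate 1) and 25.8, 22.2 and 14.8 CPM (hairpin 2 replicate 3). Reads over Igtp cannot be told from those of the overlapping gene Irgm2 with strand use not known.

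Genes common to most leukocytes followed the ranking closely: of 21 measured members of a pan-leukocyte list, 18 were counted higher, beside 3.26% of all genes. Laptm5, a lysosomal membrane protein of blood cells, measured 7.39, 17.1 and 21.9 CPM in the poor libraries, 23.8, 30.8 and 28.8 CPM in the middle and 57.0, 64.8 and 76.8 CPM in the rich libraries. Every rich library lay above every other one. The list median was 1.51 on the log2 scale, and 1.19 without hairpin 2 replicate 2. The 3 members not counted were Arhgdib at 0.12, Ptpn6 at 0.15 and Was at 0.56. The sets were chosen by leukocyte genes of the same libraries, so this list is no independent support for their label. In bulk tissue, more cells of a type and more RNA per cell cannot be told apart, here or in any list below.

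Macrophage genes stood well apart in the rich set. The myeloid genes Csf1r and Tyrobp helped to choose the sets, so this list is no independent support for their label either. Of 18 measured members, 15 were counted higher, with a median of 1.74 (1.39 without hairpin 2 replicate 2). C1qa, a chain of the complement component made mainly by tissue macrophages, measured 5.16, 34.8 and 36.7 CPM in the poor libraries, 36.0, 45.4 and 27.2 CPM in the middle and 87.1, 98.8 and 114 CPM in the rich libraries. Its poor and middle libraries overlapped, apart from hairpin 2 replicate 2, while the rich libraries were all well above them. Lyz2, the lysozyme of myeloid cells, gave 12.1, 33.4 and 52.1 CPM, then 49.7, 63.0 and 24.5 CPM, then 89.6, 138 and 147 CPM. The members not counted were the scavenger receptor gene Cd163 at 0.34, the efferocytosis receptor gene Mertk at 0.13 and the cytokine receptor gene Csf2ra at 0.72.

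By the mean log2(CPM + 1) of each list, monocyte genes and the mediators of activated myeloid cells were also highest in the 3 rich libraries. For the mediators, hairpin 2 replicate 3 was at 1.35, close to the highest of the other 6 libraries at 1.085. The other rich libraries were at 2.26 and 2.66. Of 8 measured monocyte genes, 6 were counted higher (median 1.36; 4 without hairpin 2 replicate 2), among them the integrin gene Itgam at 1.11, 1.88 and 1.89 CPM in the poor set and 8.94, 10.8 and 7.90 CPM in the rich set. Arg1, the arginine-degrading enzyme of suppressive myeloid cells, measured 6.33, 3.94 and 16.4 CPM, then 10.5, 9.83 and 15.04 CPM, then 31.0, 68.8 and 37.0 CPM. With Arg1, the inducible nitric oxide synthase Nos2, the prostaglandin synthase Ptgs2 and the interleukin-1 receptor antagonist Il1rn were counted higher, 4 of 8 measured mediators. Ptgs2 reached 27.0 CPM in hairpin 1 replicate 1 against 3.18 and 1.74 CPM in the other rich libraries, so that its difference of 2.27 leaned on 1 tumour.

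Other leukocyte classes were thinly represented. One neutrophil gene of 5 measured (Csf3r), 1 dendritic cell gene of 8 (the integrin gene Itgax) and 1 B cell gene of 4 (Cd22) were counted higher, and none of 4 regulatory T cell genes was. Without hairpin 2 replicate 2 these counts were 2, 0, 0 and 0. Of 8 natural killer cell genes, only Klrc1 passed the filter, at a difference of 0.80. No mast cell, eosinophil or keratinocyte gene passed it, and the defining genes Ly6g of neutrophils and Prg2 of eosinophils had no count in any library.

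T cell genes differed in the same direction at much lower levels. Cd3e and Cd8a helped to choose the sets, so these genes are no independent support for their label either. Of 21 listed genes of the T cell receptor and its signalling, 14 passed the filter and 6 were counted higher (median 0.96; 4 without hairpin 2 replicate 2). The T cell receptor constant region Trac measured 0.352, 0.789 and 0.522 CPM in the poor libraries, 1.08, 1.29 and 0.846 CPM in the middle and 1.43, 4.21 and 1.68 CPM in the rich libraries. At these levels a gene rests on few reads, and single values carry a wide counting error. Cytotoxic genes reached higher levels in the rich set: Gzmb, a protease that T and natural killer cells deliver into target cells, was at 0.117, 1.40 and 1.63 CPM in the poor set and 12.0, 9.34 and 4.49 CPM in the rich set, and the pore-forming Prf1 was at 0.411, 2.55 and 1.76 CPM against 8.23, 12.2 and 6.40 CPM. Of the middle libraries, hairpin 1 replicate 2 held 6.19 CPM of Gzmb and 6.58 CPM of Prf1, inside the range of the rich set. Together 4 of 9 measured cytotoxic genes were counted higher.

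On a list of checkpoint receptors and ligands, 5 of 8 measured genes were counted higher (4 without hairpin 2 replicate 2). Checkpoint products restrain T cells, but the list also holds costimulatory ligand genes. Pdcd1, which encodes the receptor PD-1, measured 0.176, 0.485 and 0.457 CPM in the poor libraries, 0.602, 0.711 and 2.34 CPM in the middle and 4.86, 3.40 and 4.49 CPM in the rich libraries. Fbxo38 is known for directing PD-1 protein to degradation in T cells, whereas the hairpins here were in the tumour cells. The 3 rich libraries, which carried 3 different hairpin labels, lay above all others for Pdcd1. The PD-1 ligand gene Cd274, Lag3, Vsir and the costimulatory ligand gene Cd86 made up the rest of the count, with differences of 1.13, 1.40, 1.59 and 1.45. Pdcd1 and Cd86 were named after their values were seen.

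**Figure D3:**
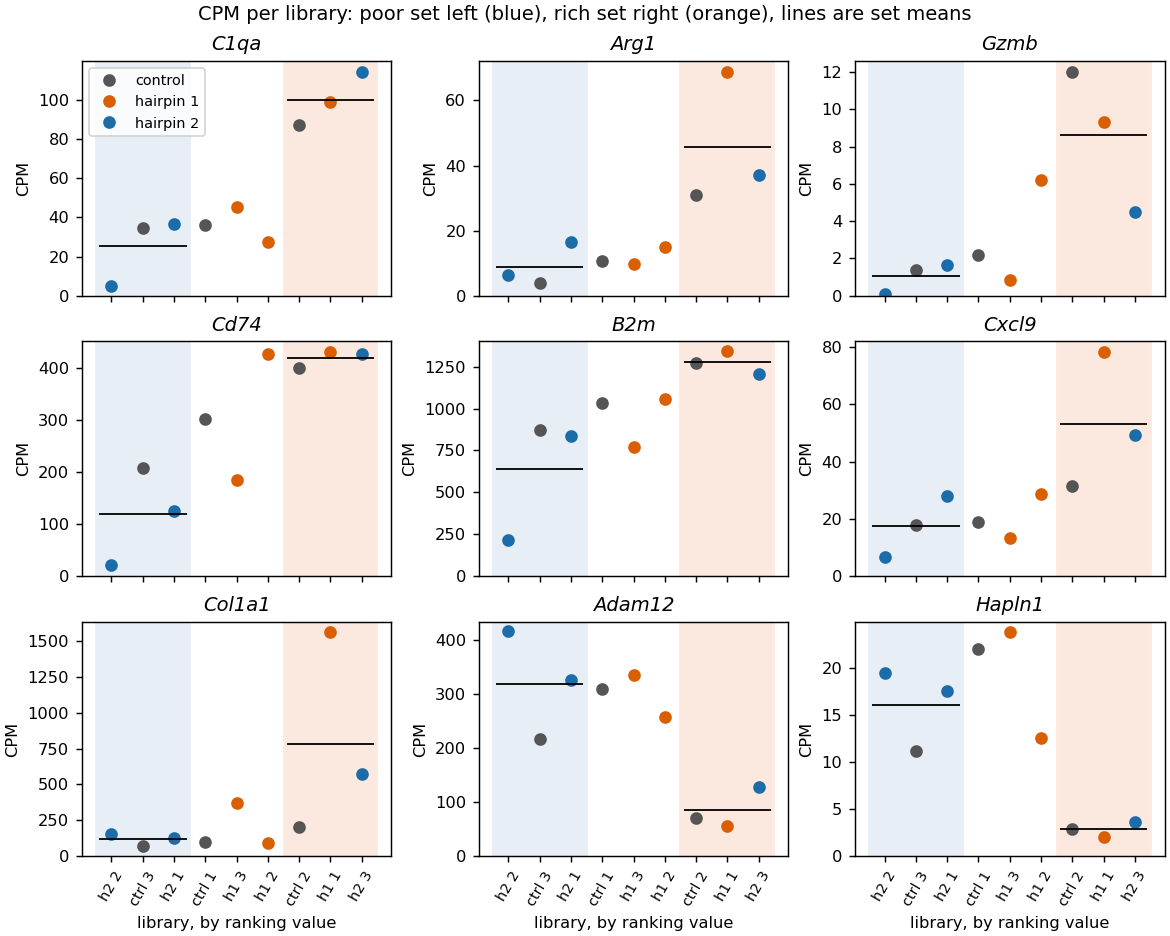
CPM per library for 9 genes, libraries in ranking order with the poor set on blue and the rich set on orange ground, points coloured by hairpin label and lines at the set means. C1qa and Arg1 separate the rich set from all 6 others, the middle libraries of Cd74 and B2m overlap with the poor ones, Col1a1 is dominated by hairpin 1 replicate 1 at 1560 CPM, and Adam12 and Hapln1 are lowest in the rich set.

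Of 19 measured genes of MHC class I presentation, 16 were counted higher, with a median of 1.56. Without hairpin 2 replicate 2, 7 were, with a median of 0.96. B2m, the invariant light chain of class I, measured 213, 871 and 837 CPM in the poor libraries, 1032, 768 and 1059 CPM in the middle and 1273, 1345 and 1209 CPM in the rich libraries. The rich libraries were highest, the middle libraries overlapped with the poor ones, and hairpin 2 replicate 2 was far below all others. Leaving it out lowered the difference of B2m from 1.24 to 0.58, under the size threshold. The immunoproteasome subunit Psmb8 (2.31, and 1.57 without that library), the peptide transporter Tap1 (2.07 and 1.08) and the heavy chain H2-K1 (1.67 and 0.99) were counted. The trimming enzyme Erap1 (0.97) and the general chaperones Calr (0.24) and Pdia3 (0.15), which also serve other proteins, were not.

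Of 9 measured MHC class II genes, 8 were counted higher, with a median of 2.17, the largest of all lists. Cd74, the invariant chain that guides class II molecules, measured 21.9, 208 and 126 CPM in the poor libraries, 303, 185 and 428 CPM in the middle and 400, 431 and 428 CPM in the rich libraries. The middle library at 428 CPM was hairpin 1 replicate 2, level with the rich set. Without hairpin 2 replicate 2 the median was 1.26 with 6 genes counted, and the lists of fibroblast matrix (1.66), macrophage (1.39), complement (1.36), monocyte (1.32) and inflammatory myeloid genes (1.31) then had larger ones. Cd74 stood at 1.37 in place of 2.31. Reads of the class II and class I heavy chain genes may be shared among close paralogs.

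Interferon-response genes were counted higher in most cases. Of 19 measured genes of the interferon gamma response, 18 were counted (median 1.68), and of 27 of the type I interferon response, 20 were (median 1.52). Irgm1, an immunity-related GTPase, measured 33.5, 198 and 161 CPM in the poor libraries, 231, 101.1 and 206 CPM in the middle and 328, 424 and 262 CPM in the rich libraries. Bst2, the virus-tethering protein tetherin, measured 50.6, 185 and 118 CPM, then 198, 172 and 212 CPM, then 316, 332 and 252 CPM. In both genes the rich libraries were above all others. Without hairpin 2 replicate 2 the medians were 1.01 and 1.10 and the counts 11 and 16, beside 403 of all 14188 genes. Irgm1 then stood at 0.89 in place of 1.68 and Bst2 at 1.00 in place of 1.52. The receptors and kinases that carry the interferon signal showed no such difference: none of Ifnar1, Ifnar2, Ifngr1, Ifngr2, Jak1, Jak2 and Tyk2 was counted, and their median was -0.01.

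Of 10 measured chemokine genes, 6 were counted higher (median 1.59, and 1.05 without hairpin 2 replicate 2). Cxcl9, which attracts activated T cells through the receptor Cxcr3, measured 6.69, 17.96 and 28.0 CPM in the poor libraries, 18.7, 13.3 and 28.7 CPM in the middle and 31.5, 78.5 and 49.4 CPM in the rich libraries. Cxcl10, which signals through the same receptor, overlapped between the sets and was not counted, at 4.05, 43.1 and 31.4 CPM against 71.4, 79.4 and 28.9 CPM. Its difference of 1.53 shrank to 0.56 without hairpin 2 replicate 2. Of 7 chemokine receptor genes, 4 were counted higher. Cxcr3 went the other way, at 7.51, 13.1 and 11.7 CPM in the poor set and 7.0, 5.77 and 5.51 CPM in the rich set. Its difference of -0.71 lay under the size threshold, although the sets did not overlap. Cxcr3 was at 5.51 to 13.1 CPM over the 9 libraries, whereas Cd3e did not exceed 1.44 CPM and Trac 4.21 CPM. Which cells gave the Cxcr3 reads was not tested. Complement genes were counted higher in 7 of 9 measured cases, among them C3 and its receptor gene C3ar1, with differences of 2.22 and 2.15.

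The lists fell into different arrangements of the 3 middle libraries. For inflammatory myeloid mediators the median over members was 0.09 from poor to middle and 1.46 from middle to rich, for monocyte genes 0.18 and 1.36, and for macrophage genes 0.48 and 1.26. For MHC class II the steps were 1.52 and 0.54 and for MHC class I 0.92 and 0.51. The interferon gamma list lay between these, at 0.65 and 1.04. Without hairpin 2 replicate 2 the step from poor to middle was 0.13 for the inflammatory, 0.01 for the monocyte and 0.05 for the macrophage list. The ranking genes include the myeloid genes Csf1r and Tyrobp. The ranking values have the same shape, with a gap of 0.091 below the middle libraries and 0.885 above them. The arrangement of the myeloid lists thus may repeat the ranking rule. The step from poor to middle was then 0.62 for MHC class II, 0.28 for MHC class I and -0.05 for the interferon gamma list. The larger step of MHC class I genes thus moved to that between the middle and rich libraries, and for MHC class II the steps were close to each other. These are descriptions of 3 libraries each, and the difference between the arrangements was not tested.

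**Figure D4:**
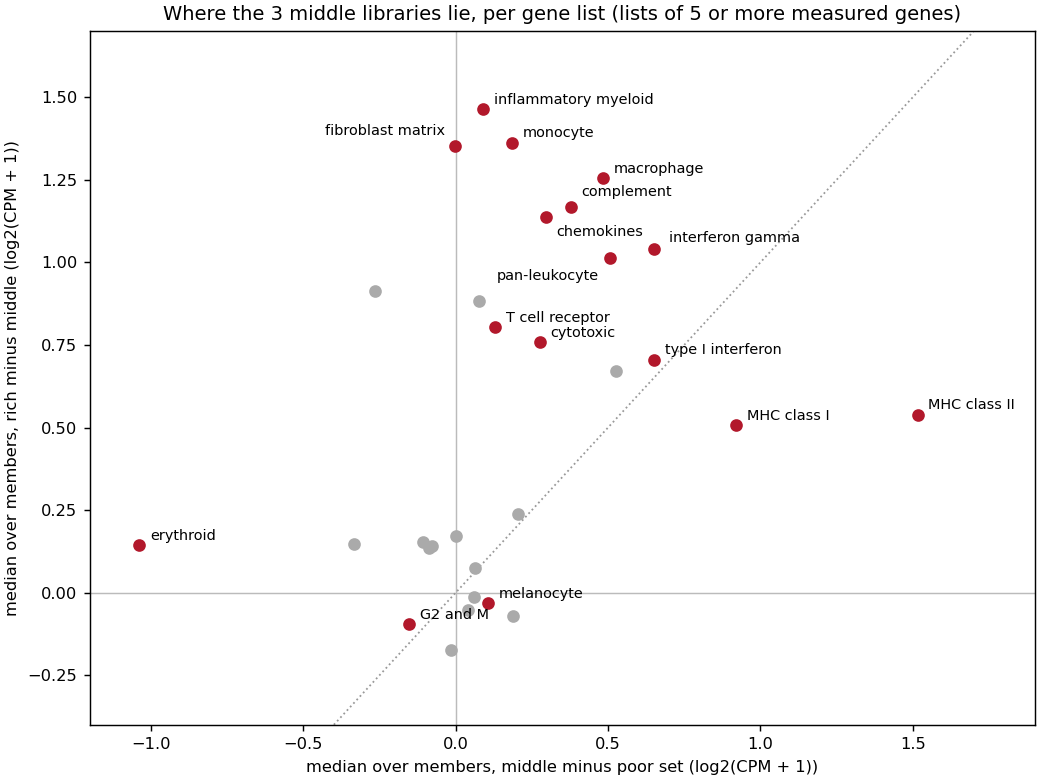
Median over the measured members of each gene list of the step from the poor set to the middle libraries (horizontal axis) and from the middle libraries to the rich set (vertical axis), both on the log2(CPM + 1) scale; the dotted line marks equal steps. Inflammatory myeloid, monocyte and macrophage genes lie high on the vertical axis, and MHC class I and class II lie to the right of the line with all 3 poor libraries; without hairpin 2 replicate 2 the horizontal value of MHC class I is 0.28.

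**Figure D5:**
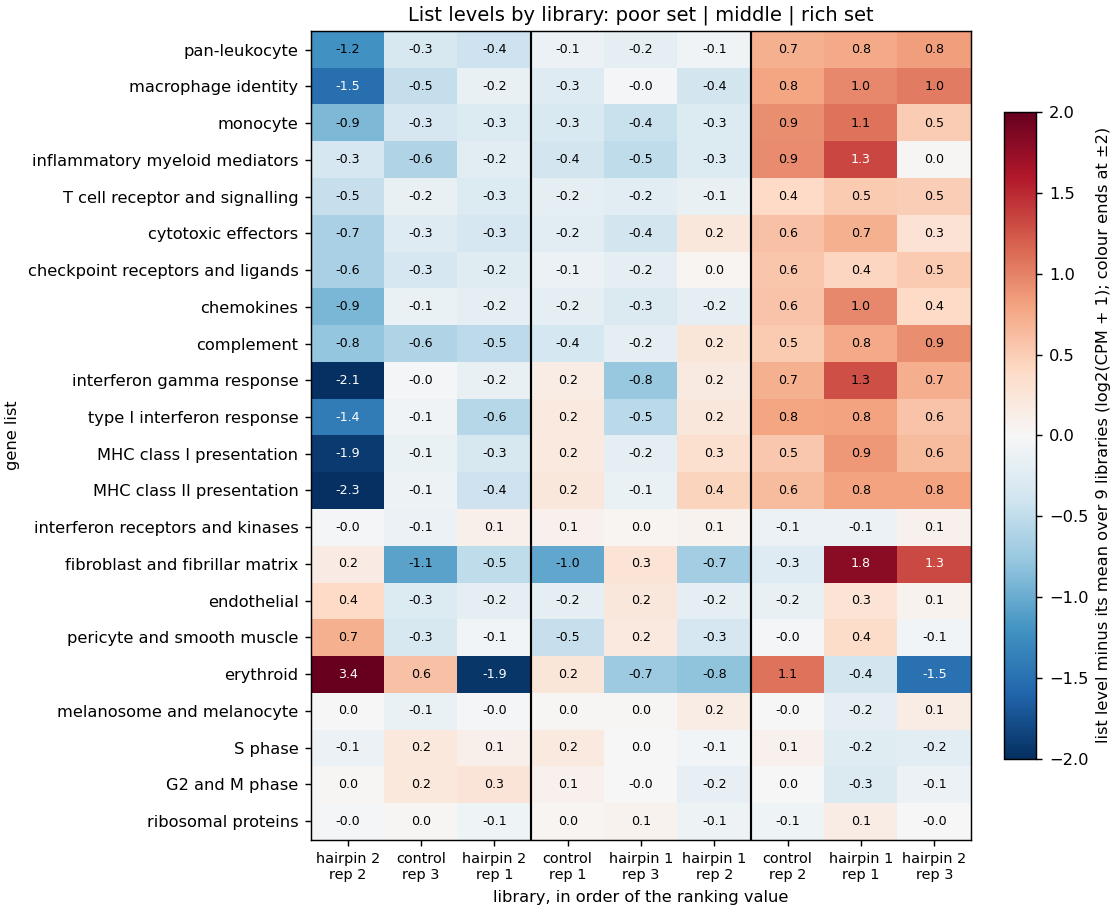
Mean log2(CPM + 1) over the listed genes in each library, minus the list's mean over the 9 libraries, with libraries in ranking order and lines dividing the poor, middle and rich libraries. Of the leukocyte, interferon-response and MHC lists drawn here, all are highest in the 3 rich libraries and lowest in hairpin 2 replicate 2, apart from the inflammatory myeloid list, which is lowest in control replicate 3; the erythroid list is highest in hairpin 2 replicate 2.

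Promoter sequence was set beside the interferon-response values, since members that stand higher together can share a regulatory motif. The interferon-stimulated response element core was searched as GAAA, then 2 bases of any kind, then GAAA, on both strands, in the 250 bases before the start of each gene in the RefSeq promoter table of mouse build GRCm38.p6. It was present in 2.98% of all 32851 promoters. Counted by gene, with a match in any promoter entry of the gene, it was held by 3.21% of 10290 genes that passed the filter. The shares that follow are counted by gene in the same way. Among genes counted higher, 54 of 332 with a promoter entry held it (16.3%), and among those counted lower 2 of 23 did (8.7%). It was held by 10 of 14 interferon gamma genes, 9 of 19 type I interferon genes, 3 of 16 MHC class I genes and 2 of 9 chemokine genes. The gamma-activated site core (TTC, 3 bases of any kind, then GAA) was held by 36 of 332 genes counted higher (10.8%). Its share was 7.23% among genes that passed the filter. By list, 9 of 14 interferon gamma genes held this core, as did 3 of 19 type I interferon, 1 of 16 MHC class I and 0 of 9 chemokine genes. A match describes the letters of a window and does not show that a factor binds there. For each of the 4 lists, the named gene of highest mean level whose promoter holds the response element core is printed 5′ to 3′ along its own strand, with the match in capitals: B2m at chr2:122147437-122147686 on the plus strand, and Irgm1 at chr11:48871421-48871670, Bst2 at chr8:71537473-71537722 and Cxcl10 at chr5:92348890-92349139 on the minus strand.
B2m: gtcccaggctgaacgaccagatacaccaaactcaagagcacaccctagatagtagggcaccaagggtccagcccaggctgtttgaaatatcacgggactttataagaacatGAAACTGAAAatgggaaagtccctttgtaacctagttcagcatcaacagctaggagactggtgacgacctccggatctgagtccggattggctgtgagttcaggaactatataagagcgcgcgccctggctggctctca
Irgm1: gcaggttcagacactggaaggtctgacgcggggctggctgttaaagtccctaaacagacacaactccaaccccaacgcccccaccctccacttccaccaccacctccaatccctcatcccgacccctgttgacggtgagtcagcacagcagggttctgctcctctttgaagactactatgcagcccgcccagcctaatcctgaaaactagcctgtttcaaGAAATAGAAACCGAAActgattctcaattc
Bst2: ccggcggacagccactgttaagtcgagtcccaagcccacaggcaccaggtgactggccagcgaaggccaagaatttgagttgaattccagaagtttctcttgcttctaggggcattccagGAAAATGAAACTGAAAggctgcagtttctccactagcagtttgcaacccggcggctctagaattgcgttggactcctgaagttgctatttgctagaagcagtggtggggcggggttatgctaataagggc
Cxcl10: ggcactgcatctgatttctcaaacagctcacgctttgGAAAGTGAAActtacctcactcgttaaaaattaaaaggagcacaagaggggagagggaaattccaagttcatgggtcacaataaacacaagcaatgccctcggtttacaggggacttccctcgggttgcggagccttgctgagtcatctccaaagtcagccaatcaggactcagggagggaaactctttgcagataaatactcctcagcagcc

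The match ended 129 bases before the start in B2m and 203 bases before it in Cxcl10. In Irgm1 and Bst2 a pair of overlapping matches formed a run of GAAA repeats. The matches ended 20 and 14 bases before the start in Irgm1 and 120 and 114 bases before it in Bst2. The values of these genes across the libraries are those given above: B2m, Irgm1 and Bst2 were counted higher, and Cxcl10 was not.

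Stromal, vascular and tumour-cell lists behaved differently from the leukocyte lists. Matrix genes of fibroblasts had a median of 1.31 over 16 genes, yet only Col1a1 and Dcn were counted; without hairpin 2 replicate 2, 11 were. Col1a1, a chain of type I collagen, measured 155, 74.4 and 129 CPM in the poor libraries, 96.5, 371 and 90.6 CPM in the middle and 206, 1560 and 575 CPM in the rich libraries. The rich tumours were thus unlike each other, with hairpin 1 replicate 1 far above the rest and control replicate 2 inside the range of the middle libraries. Tnc, a matrix glycoprotein of remodelling tissue, showed the same spread, at 36.2, 240 and 57.0 CPM in the rich set and no more than 17.6 CPM elsewhere. Endothelial genes (median 0.03 over 14) and pericyte genes (median -0.28 over 7) had no member counted.

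Melanocyte genes, which mark the tumour cells, had a median of 0.08 over 15 genes and none was counted. Tyrp1, a melanosomal enzyme, measured 5981, 7666 and 7338 CPM in the poor libraries and 9580, 7191 and 8372 CPM in the rich ones, with overlap. Pmel, the melanosome fibril protein, did not overlap, at 4509, 5505 and 4776 CPM against 7123, 6405 and 7155 CPM, but its difference of 0.49 was under the size threshold, and its exons overlap those of Cdk2 and Dgka. The summed leukocyte lists were small beside these: the pan-leukocyte list added up to 713.8 to 777.5 CPM in the rich set and 349.6 to 490.1 CPM in the poor set, and the macrophage list to 564.4 to 818.8 CPM and 71.49 to 274.8 CPM. Much of the pan-leukocyte sum came from Arhgdib, at 217 to 262 CPM in the rich set and 187 to 266 CPM in the poor set. Arhgdib was not counted, so this sum shows less contrast than most members of the list. Erythroid genes varied most, and not with the sets. Hba-a1, a globin chain of red cells, measured 9346 CPM in hairpin 2 replicate 2 and 181 to 2267 CPM in the other 8 libraries, and the erythroid median turned from -0.94 to 0.53 when that library was left out. The part of blood content in the low leukocyte level of that library was not tested.

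Genes of the cell cycle were slightly lower in the rich set. Of 17 S phase genes, 16 had a negative difference (median -0.19), and of 16 genes of G2 and M phase, 15 did (median -0.23). Mki67, a marker of cycling cells, measured 292, 267 and 431 CPM in the poor libraries, 258, 273 and 185 CPM in the middle and 216, 151 and 200 CPM in the rich libraries, without overlap between the sets. The Mki67 difference of -0.78 was the most negative of the G2 and M list. In that list 6 of 16 genes were lower with no overlap, and in the S phase list 2 of 17, beside 10.4% of all genes. In no gene of either list did the difference reach the size threshold. Their differences lie beside a median of -0.0419 over all genes, of which 44% were positive. Lists of ribosomal protein genes, glycolysis, hypoxia and oxidative phosphorylation had medians of 0.05, 0.12, 0.06 and 0.16 with no member counted.

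The largest negative differences were those of Hapln1 and Adam12. Hapln1, which links hyaluronan to proteoglycans, measured 19.4, 11.2 and 17.5 CPM in the poor libraries, 21.9, 23.8 and 12.5 CPM in the middle and 2.85, 2.02 and 3.65 CPM in the rich libraries. Adam12, a membrane metalloprotease, measured 415, 216 and 325 CPM, then 308, 334 and 257 CPM, then 70.9, 56.0 and 128 CPM. Both lay below all 6 other libraries in each rich library, with differences of -2.14 ± 0.29 and -1.93 ± 0.45 (SE), and leaving out hairpin 2 replicate 2 changed them little, to -1.99 and -1.72. Ppp1r16b, a regulatory subunit of protein phosphatase 1, had the same arrangement at 82.0, 55.6 and 62.1 CPM against 24.6, 16.9 and 28.0 CPM. The teneurin gene Tenm4 (-1.66) and the collagen gene Col9a1 (-1.76) owed part of their difference to hairpin 2 replicate 2, without which they stood at -0.94 and -1.14. The other members of the 15 largest were the carbonic anhydrase gene Car12, the transcription factor gene Etv5, the butyrophilin gene Btn2a2, the non-muscle myosin gene Myh14, the pseudokinase gene Trib2, Dock10, Clvs1, Mro, Gm20619 and Gm6087, with differences from -1.53 to -1.16. Of these other members, Myh14 stood at -0.97 and Gm6087 at -0.85 without hairpin 2 replicate 2, under the size threshold, and the rest stayed beyond it. Genes counted lower had longer transcripts (median 4176 bases) than those counted higher (2807 bases) or all genes (3206 bases).

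Transcript length moved with the sets over the whole transcriptome. The rank correlation (Spearman's rho) of the rich minus poor difference with transcript length was -0.338 over genes, which are no replicates of each other. With each library's mean deviation within 50 length bins removed, 446 genes were counted higher and 26 lower, of which 414 and 22 were the same genes. The list medians stood at 1.72 for macrophage, 1.48 for MHC class I and 1.64 for interferon gamma genes. Mitochondrial transcripts made up 3.19% to 6.29% of counts in the rich set, 2.12% to 4.19% in the middle and 2.55% to 4.31% in the poor set, and the part of RNA quality in the differences was not tested.

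Since the rich set held each label once, the same difference could be read inside each label. The highest library was set against the lowest: control replicate 2 against control replicate 3, hairpin 1 replicate 1 against replicate 3, and hairpin 2 replicate 3 against replicate 2. The control and hairpin 2 pairs are rich against poor libraries, so their sign was fixed for every gene counted, and only the hairpin 1 pair adds a library from outside the sets. Counting genes by these pairs, with the same sign in all 3 and a mean of at least 1 in size, gave 494 higher (3.48%) and 41 lower (0.289%). The macrophage median was 1.304 within control, 1.06 within hairpin 1 and 2.79 within hairpin 2. That of inflammatory myeloid mediators was 2.07, 2.43 and 0.23, so the hairpin 2 pair was the largest for macrophage genes and the smallest for these. When genes were chosen without any hairpin 1 library, 422 were counted higher, and in 397 of them (94.1%) hairpin 1 replicate 1 lay above both other hairpin 1 libraries, beside 35.8% of all genes. Of 32 genes chosen as lower in that way, hairpin 1 replicate 1 lay below both in 22 (68.8%), beside 41.9%. Hairpin 1 replicate 1 was also the highest of its label by the ranking genes, at 3.31 against 2.22 and 2.27. These shares thus depend on the same ranking rule and are no independent support for the differences.

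Fbxo38, the targeted gene, measured 21.9, 31.0 and 31.4 CPM in control replicates 1 to 3, 34.2, 20.3 and 22.6 CPM in hairpin 1 and 21.8, 11.2 and 11.7 CPM in hairpin 2. Hairpin 1 libraries overlapped with control, so the label is not borne out there by the RNA, and the hairpin 2 libraries all lay below the lowest control, replicate 1 only narrowly. By edgeR's quasi-likelihood test the log2 fold change against control was -0.10 ± 0.28 (SE, adjusted p = 1) for hairpin 1 and -0.92 ± 0.29 (adjusted p = 0.254) for hairpin 2. In the sets, Fbxo38 spanned 11.7 to 34.2 CPM in the rich and 11.2 to 31.4 CPM in the poor libraries.

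No gene passed an adjusted p of 0.05 in edgeR for either hairpin, with 450 of 14193 genes (3.17%) under an unadjusted p of 0.05 for hairpin 1 and 2046 (14.4%) for hairpin 2. DESeq2 called 0 and 280 genes. Genes counted between the sets were selected for a spread inside the labels, since the rich set takes 1 library of each, and this selection works against a small p between labels; no count of them by hairpin is therefore given. Cd74 averaged 304 ± 96.0 CPM in control, 348 ± 141 in hairpin 1 and 192 ± 211 in hairpin 2 (SD, n = 3), with an edgeR log2 fold change of -0.65 ± 0.92 (SE, adjusted p = 0.782) for hairpin 2 against control. Adam12 averaged 198 ± 120 CPM in control and 290 ± 147 CPM in hairpin 2 (SD, n = 3), a log2 fold change of 0.56 ± 0.77 (SE, edgeR adjusted p = 0.777). For neither gene did the difference pass the test. Both genes were counted between the sets, so the selection just described works against a small p for them, and no conclusion on the hairpins is drawn. Each label held 1 tumour of the rich set beside tumours outside it.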

How the data were processed

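Whole-number counts per gene symbol for 9 tumour libraries were used as the authors deposited them. Per the labels' protocols, RNA came from TRIzol extraction and was read on a NovaSeq machine. STAR 2.7.0d and Cufflinks stand in the submitters' processing notes beside 2 names of a human genome (GRCh38, hg38), although all symbols are mouse. The counter, annotation and strand use were not given in the sources used here. Titles set the groups, because the genotype field counts up from FBXO38 to FBXO43 over the 6 hairpin samples. The members of the sets and all gene lists were chosen with earlier results of these data known.

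The files hold 54532 entries; of the 102 symbols that stand on several entries, list members took the entry with most counts. Library totals of 15322163 to 17342554 counts set the precision, and intervals of replicates cover the spread between these samples only. Genes were kept by filterByExpr on the hairpin groups (minimum count 10, minimum total 15). CPM used library totals and log2 values a pseudocount of 1; the SE of a difference comes from the 3 libraries of each set. Hairpin groups were compared with edgeR 4.0.16 (TMM, glmQLFit and glmQLFTest, robust, all 9 libraries, Benjamini-Hochberg over 14193 genes) in R 4.3.3, with DESeq2 1.42.0 as an alternative. The fit and the counting rule were tested on simulated data. No library repeated another: over genes, chi-square divided by its degrees of freedom lay between 10.6 and 120.5 for all pairs.

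Named genes were the ranking genes, Fbxo38, the 15 largest positive and negative differences among those counted, the 4 members of highest mean CPM of each of 40 lists, and members of small counts. Other list members are named with their difference alone and were picked after their values were seen. Gene overlaps and transcript lengths came from GENCODE M21 and promoters from RefSeq. Of 171 named genes' promoters, the bases after the start were found in a GENCODE transcript for 110.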

Additional observations from a re-analysis of the deposited data

How the results depend on the processing

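The count of 462 higher genes stayed within 1.5 times under every alternative run except a pseudocount of 5, which left 197, and leaving out 1 library gave 403 to 611. The count of 31 lower genes was less stable: 55 with a pseudocount of 0.5, 8 with a pseudocount of 5, 18 with the ranking made without Cd8a (control replicate 1 then entered the poor set) and 18 with control replicate 1 in place of hairpin 2 replicate 2. Leaving out 1 library gave 20 to 117 lower genes, with 20 without hairpin 2 replicate 2, 97 without hairpin 2 replicate 3 and 117 without control replicate 3. The cause was not tested. For hairpin 2 against control, where edgeR called 0 genes, DESeq2 called 280, edgeR without a filter on low counts 4, and leaving out 1 library gave 0 to 2, the 2 without hairpin 2 replicate 1. Hairpin 1 gave 0 calls under all of them. The Fbxo38 log2 fold change of hairpin 1 against control turned from -0.10 to 0.02791 without hairpin 1 replicate 2 and 0.008707 without hairpin 1 replicate 3; its range with 1 library left out was -0.3904 to 0.02791. Replicate numbers did not pair the samples (correlations of -0.409 to 0.138), and the fit with the replicate block called 0 and 0 genes, with 287 and 1498 under an unadjusted p of 0.05. Of the values of named genes under the alternatives, 3475 moved by less than the spread between libraries and 39 by more; for list medians these numbers were 759 and 17. The length correction, the replacement of the lowest library and the choice of genes without hairpin 1 were added after seeing the data. T cell genes near 1 CPM are limited by depth.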
